A study of Mus musculus with 24 samples.

Results

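The comparison described here set bone marrow-derived dendritic cells lacking Lyn directly against those lacking Irf5 after stimulation with CpG-B, with 3 arrays of each, 6 of the 24 arrays of the study. The members were taken by the titles of the samples, which give genotype, stimulation and replicate number. Marrow cells from C57BL/6 background mice (WT, Irf5-KO, Lyn-KO, and DKO, which lacks both genes) grew with human Flt3 ligand at 100 ng/ml until day 9. They were then left unstimulated or received the oligonucleotide CpG-B at 150 nM for 6 h, and total RNA was hybridised in 1 colour to Agilent mouse arrays. Both groups compared here carry 1 deletion and the same stimulus, and neither is a control of the other. The 6 arrays of the same genotypes without CpG-B and the 3 WT arrays with CpG-B are given beside them. The other 9 arrays, WT without CpG-B and both DKO groups, entered the estimate of the spread, and WT without CpG-B is also plotted. The labels call the replicates biological and give neither the alleles nor the age or sex of the mice.

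CpG-B is an unmethylated DNA that Toll-like receptor 9 senses in endosomes. The receptor signals through the adaptor MyD88 and TRAF6, which switch on NF-kB and the interferon regulatory factors. IRF5 is a transcription factor of this branch that drives inflammatory cytokine genes, and IRF7 is best known for the interferon alpha genes of plasmacytoid dendritic cells. Lyn is a Src-family tyrosine kinase that acts with receptors carrying inhibitory motifs, and it has been described as a restraint on IRF5 in this pathway. Cultures with Flt3 ligand hold plasmacytoid and conventional dendritic cells, with other marrow cells beside them. The direct comparison asks which transcripts part cells without the restraint from cells without the factor itself.

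The interferon genes gave the group of differences with the highest median, so the DNA before their starts is shown first. Bases are from RefSeq on the build GRCm38.p6, read 5′ to 3′ on the strand of the gene. Capitals mark the core of the interferon response element, GAAANNGAAA, or the kappa B motif, GGGANTTTCC, on either strand, searched in the 250 bases before each annotated start. The first 5 windows run from 220 to 101 bases before the start, that of Isg15 from 160 to 41 and that of Il6 from 100 to 21. Ifna4 (chr4:88841596-88841715, plus strand), Ifna5 (chr4:88835305-88835424, plus), Ifna1 (chr4:88849867-88849986, plus) and Ifna11 (chr4:88819699-88819818, plus) show the core, which lay before 8 of 13 interferon genes. Ifnb1 (chr4:88522895-88523014, minus strand), the interferon with the largest difference, held neither motif in these letters. Its window does hold close variants, gaaaactgaaa and gggaaattcc, which these patterns do not match. Isg15 (chr4:156200859-156200978, minus) stands for the interferon-stimulated genes, and Il6 (chr5:30013014-30013093, plus) for the cytokines with a kappa B match.
Ifna4: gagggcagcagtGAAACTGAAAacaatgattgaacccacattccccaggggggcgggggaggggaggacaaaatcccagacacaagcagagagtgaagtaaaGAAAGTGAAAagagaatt
Ifna5: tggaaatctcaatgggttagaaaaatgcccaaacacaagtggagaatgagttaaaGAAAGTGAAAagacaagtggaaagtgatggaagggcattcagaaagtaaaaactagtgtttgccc
Ifna1: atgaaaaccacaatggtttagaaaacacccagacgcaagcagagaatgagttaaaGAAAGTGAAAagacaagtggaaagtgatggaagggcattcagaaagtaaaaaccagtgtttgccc
Ifna11: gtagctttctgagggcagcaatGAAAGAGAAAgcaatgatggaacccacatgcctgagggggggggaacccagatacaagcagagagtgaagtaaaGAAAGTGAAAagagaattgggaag
Ifnb1: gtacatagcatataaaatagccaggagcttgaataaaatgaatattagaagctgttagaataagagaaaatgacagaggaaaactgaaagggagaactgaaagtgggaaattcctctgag
Isg15: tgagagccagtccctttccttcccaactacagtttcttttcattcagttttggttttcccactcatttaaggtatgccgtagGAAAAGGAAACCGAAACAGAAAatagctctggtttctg
Il6: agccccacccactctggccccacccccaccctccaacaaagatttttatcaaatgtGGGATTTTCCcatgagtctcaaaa

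The interferon response core was found before 8 of the 13 interferon genes with a RefSeq promoter (61.5%) and before 22 of 49 interferon-stimulated genes (44.9%). The share was 3.53% of 10130 tested genes and 3.46% of all 27025 promoters of that length. Over the whole comparison, 3.15% of the genes called higher and 3.44% of those called lower held it, and 5.17% and 5.65% of those past 2-fold. The kappa B motif lay before 3 of 19 cytokine genes (15.8%) and 3 of 18 chemokine genes (16.7%), against 0.533% of the genes tested. A match describes the letters only.

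On the 6 arrays, 46.1% to 50.6% of the spots were well above background by the scanner software, and the processed signal had its 75th percentile at 303 to 437. Signals below are given as multiples of that percentile of the same array, so a signal of 1 is the array's own 75th percentile. Arrays of one group correlated at 0.992 to 0.994 over the features, and 3 arrays per group limit the precision. Features are not independent of each other. A log2 difference is Lyn-KO minus Irf5-KO, so a positive value is higher in Lyn-KO. Each carries the standard error of the limma fit (3 arrays per group), and calls were made at an adjusted p of 0.05 (Benjamini-Hochberg, over all features tested).

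The targeted genes were examined as a check of the labels. Lyn signals were 0.852, 0.854 and 0.853 in Lyn-KO and 2.86, 2.78 and 2.75 in Irf5-KO arrays. The groups were far apart, and Lyn was 3.27-fold lower in Lyn-KO (-1.71 ± 0.09, adjusted p = 2.6e-11), although its probe stayed well above background on all 6 arrays. Irf5 signals were 22.4, 22.9 and 22.1 in Lyn-KO and 24.0, 27.0 and 33.5 in Irf5-KO arrays, so the probe was brighter in the cells labelled Irf5-KO (-0.31 ± 0.09, adjusted p = 0.011). That call was lost without the Irf5-KO replicate 3 with CpG-B (-0.18, adjusted p = 0.076) and in a fit of the 6 arrays alone (adjusted p = 0.12). Without CpG-B the probe was called the other way (0.39 ± 0.09), with 28.6, 29.0 and 27.6 in Lyn-KO and 21.4, 21.031 and 22.4 in Irf5-KO. The sources used here do not say whether this probe lies in the deleted part of Irf5, so it checks nothing. Irf5-KO below therefore means the arrays labelled so. Dock2, a guanine exchange factor a mutation of which has been described in some Irf5-deficient mouse lines, had signals of 2.51, 2.73 and 2.16 in Lyn-KO and 2.88, 2.85 and 2.80 in Irf5-KO. Its brighter probe was not called (-0.21 ± 0.09, adjusted p = 0.087, but 0.010 with the slide as a replicate block), and its other probe was called lower in Lyn-KO (-0.45).

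With CpG-B, 7046 of 20208 features (34.9%) were called between Lyn-KO and Irf5-KO. They fell almost evenly into 3529 higher in Lyn-KO (17.5%) and 3517 lower (17.4%), with 703 (3.48%) and 772 (3.82%) past 2-fold. After normexp background correction 386 and 465 passed 2-fold, and 340 and 381 did when only probes detected on every array were used. The median over all features tested was 0.03 (log2), and 9563 features (47.3%) had no overlap between the groups. Among the 12647 features with a symbol, to which all list members belong, 2508 were called higher and 2649 lower, 40.8% in all. The share called was thus larger among named genes than over all features. Both are the background for the counts below. The design has no control in this comparison, so a difference can come from either knockout, and WT values with CpG-B are therefore set beside the main genes. Of the features higher in Lyn-KO, 482 were above WT in Lyn-KO and below WT in Irf5-KO. A further 1059 differed from WT in Lyn-KO alone, 916 in Irf5-KO alone, 199 in both the same way and 873 in neither. Of those lower in Lyn-KO, the numbers were 482, 1040, 1120, 227 and 648. Both WT comparisons share the same WT arrays, with 25.2% of features called for Lyn-KO and 25.5% for Irf5-KO.

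**Figure D1:**
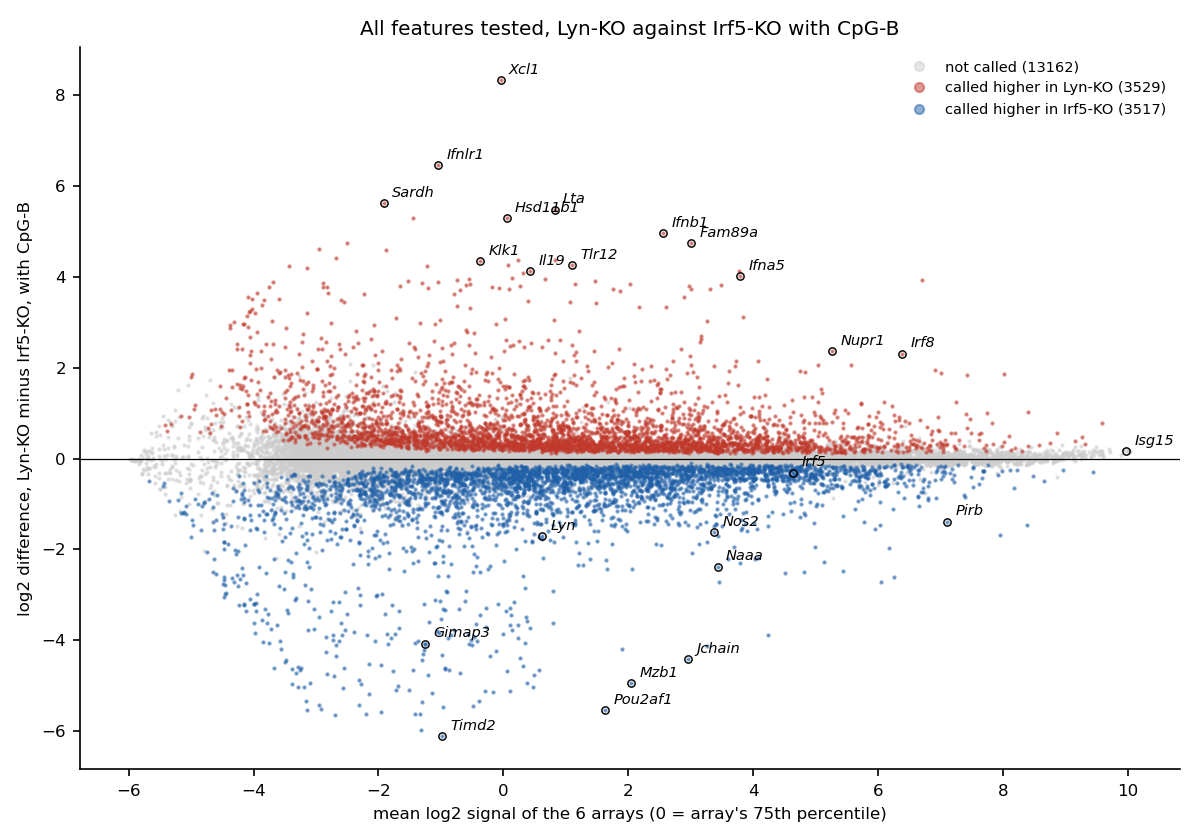
Each point is 1 of the 20208 features tested, with the mean log2 signal of the 6 arrays on the horizontal axis and the log2 difference between Lyn-KO and Irf5-KO with CpG-B on the vertical axis. Red points were called higher and blue points lower in Lyn-KO, grey points were not called, and named genes are ringed, with Xcl1 at the top (8.34) and Timd2 at the bottom (-6.11).

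All 14 type I and III interferon genes tested were called higher in Lyn-KO, against 17.5% of all features, with a median difference of 3.80 (3.47, 4.09 and 3.82 within slides 1, 2 and 3, each of which held 1 array of every group). With only probes detected on every array of the study, 1 of the 14 was left (Ifnl3). Ifnb1, the early type I interferon, had signals of 31.7, 33.2 and 33.6 in Lyn-KO and 1.23, 0.863 and 1.11 in Irf5-KO arrays. The Lyn-KO arrays lay together far above the others, a difference of 31.1-fold (4.96 ± 0.25, adjusted p = 2.4e-11). Ifna4, an interferon alpha of the first wave, read 4.34, 4.73 and 4.69 in Lyn-KO and 0.305, 0.171 and 0.268 in Irf5-KO, again with no overlap (4.25 ± 0.36). Ifna5 read 44.2, 46.5 and 84.4 against 4.34, 2.88 and 3.30 (4.01 ± 0.27), the highest value coming from Lyn-KO replicate 3. Ifna1 read 24.7, 26.1 and 25.7 against 2.75, 1.78 and 2.04 (3.57 ± 0.15), and Ifna11 5.86, 6.35 and 6.56 against 0.516, 0.315 and 0.413 (3.94 ± 0.41). The 10 interferon alpha genes and the alpha-like Ifnab lay between 3.57 and 4.25. Their coding sequences are closely similar, so the probes can share signal and the genes are not separate observations. Ifnl3, an interferon lambda, differed less, with signals of 11.9, 11.5 and 10.9 against 5.30, 4.46 and 4.86 (1.23 ± 0.12), and Ifnk, a type I interferon of skin, least (0.75 ± 0.19, and 0.31 after normexp correction).

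For most interferons the WT level lay between the knockouts. All 14 were called higher in Lyn-KO than in WT (median 2.80, against 13.9% of all features), and 11 were called lower in Irf5-KO than in WT (median -0.97, against 11.1%). For Ifnb1, with a WT mean of 4.98, the differences were 2.72 ± 0.25 for Lyn-KO and -2.24 ± 0.25 for Irf5-KO. For Ifna4 they were 3.20 ± 0.36 and -1.05 ± 0.36. Without CpG-B, 1 of the 14 probes was well above background on all 3 Lyn-KO arrays and 5 on all 3 Irf5-KO arrays, and in each genotype 5 were on none, so the unstimulated values lie mostly near background. There limma called 0 of the 14 between the genotypes, and 0 passed an unadjusted p of 0.05 (median 0.11), against 6.08% of all features called in either direction. The response to CpG-B was called larger in Lyn-KO for 13, against 8.63% of all features, and these responses start from the same dim values. In these bulk samples fewer cells of a type and less RNA per cell cannot be told apart, and the summed signal of plasmacytoid dendritic cell markers, given below, was also higher in Lyn-KO.

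**Figure D2:**
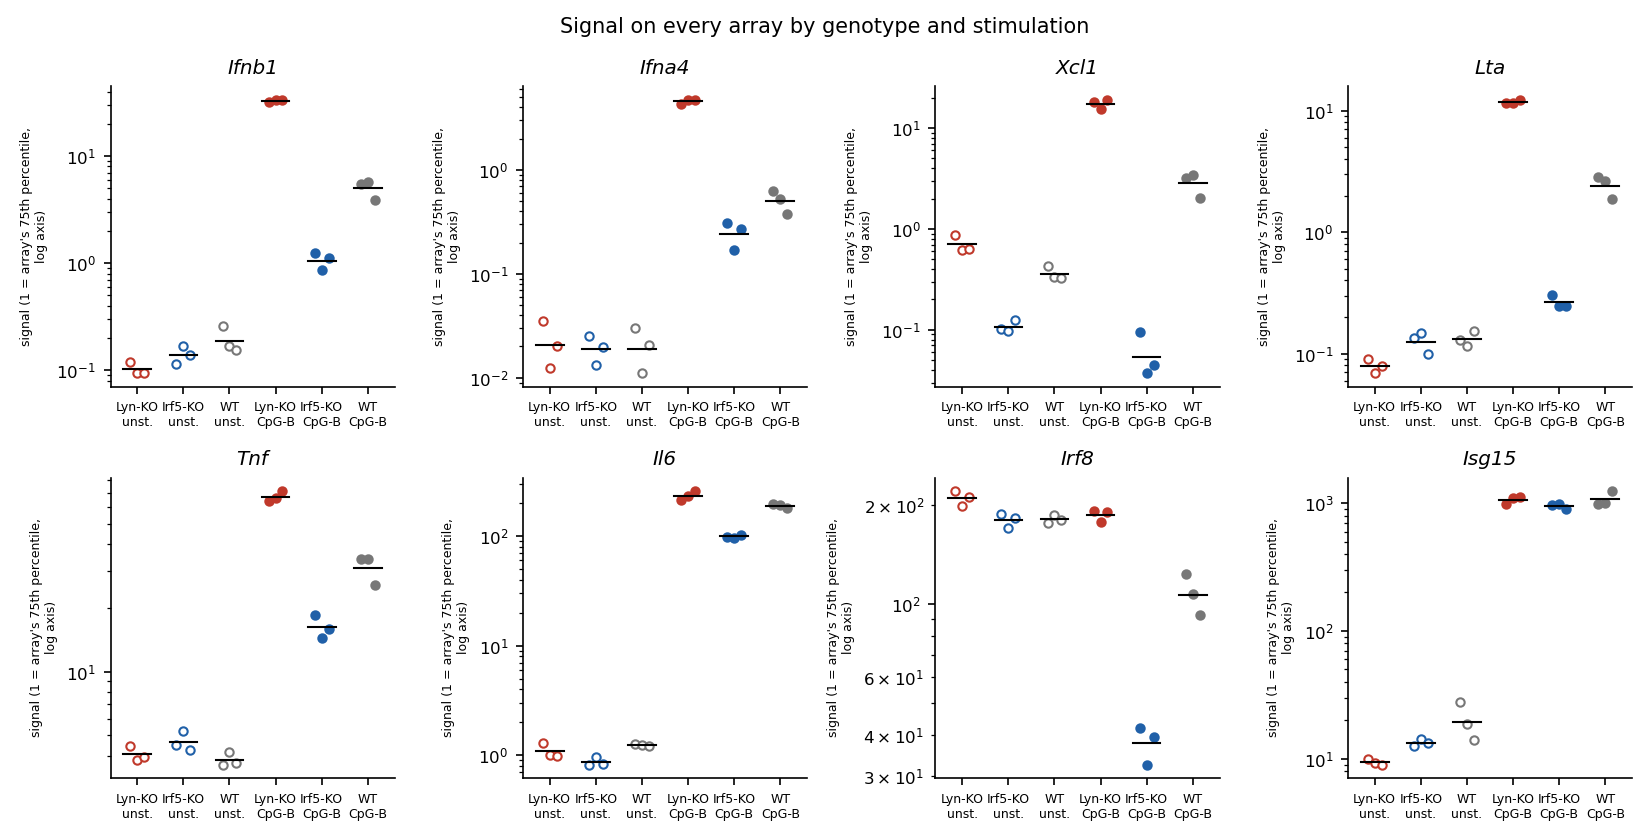
Signal of 8 genes on each array, on log axes, in multiples of the array's 75th percentile, for Lyn-KO (red), Irf5-KO (blue) and WT (grey), unstimulated (open) and with CpG-B (filled), with a line at the geometric mean of 3 arrays. With CpG-B the Ifnb1 signals were 31.7, 33.2 and 33.6 in Lyn-KO and 1.23, 0.863 and 1.11 in Irf5-KO, whereas those of Isg15 overlapped.

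Interferon-stimulated genes, which cells switch on through the interferon receptors, did not follow the ligands. Of 63 tested, 4 were called higher and 8 lower in Lyn-KO, under the background shares, with a median of -0.07. Their summed signal rose with CpG-B in both genotypes. It was 514 to 579 without and 6346 to 6706 with CpG-B in Lyn-KO, and 566 to 577 and 6613 to 7037 in Irf5-KO. Isg15, a ubiquitin-like protein, read 978, 1105 and 1117 in Lyn-KO and 959.9, 988 and 893 in Irf5-KO, and the groups overlapped (0.17 ± 0.21, adjusted p = 0.57). Ifit1, which binds foreign RNA ends, read 47.8, 54.1 and 57.1 against 62.6, 71.7 and 75.9 and was not called (-0.40 ± 0.26, adjusted p = 0.26). Irf7, the interferon-induced regulator of interferon alpha genes, had a difference of 0.0033 ± 0.20 (adjusted p = 0.99). The largest difference of the list ran the other way: Slfn4, a Schlafen family member of myeloid cells, read 0.749, 0.764 and 0.697 in Lyn-KO and 2.02, 2.59 and 3.29 in Irf5-KO (-1.81 ± 0.32). Against WT, 2 were called higher and 1 lower in Lyn-KO (13.9% and 11.2% of all features), and 5 higher and 2 lower in Irf5-KO (14.4% and 11.1%). The time of 6 h was the single time measured.

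Of the receptors and regulators above these genes, the lambda receptor stood out. Ifnlr1, the chain that binds interferon lambda, read 3.86, 4.45 and 5.52 in Lyn-KO and was not well above background on any Irf5-KO array. It was at least 57.4-fold higher in Lyn-KO (fitted difference 6.46 ± 0.21, and 3.99 after normexp correction), the fold set against the lowest signal counted as above background on each array. Ifnar1 and Ifnar2, the 2 chains of the type I receptor, differed by -0.45 ± 0.09 (called) and -0.07 ± 0.09 (adjusted p = 0.62). Among 10 interferon regulatory factor entries, 2 were called higher (Irf8 and the binding partner Irf2bp2, 0.52 ± 0.10) and 1, Irf5 itself, lower. Irf8, a factor of plasmacytoid and type 1 conventional dendritic cells, read 192, 178 and 190.4 in Lyn-KO and 41.8, 32.4 and 39.3 in Irf5-KO, a difference of 4.96-fold (2.31 ± 0.09). Without CpG-B its means were 209.6 and 180.0, and in WT cells with CpG-B the mean was 106.61. So with the stimulus the signal stood lower in Irf5-KO and higher in Lyn-KO than in WT (-1.50 ± 0.09 and 0.81 ± 0.09).

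Cytokine genes leaned to Lyn-KO, with 12 of 24 called higher, 1 called lower and a median of 0.54 (0.24 with no filter on dim probes). Lta, which encodes lymphotoxin alpha, read 11.5, 11.6 and 12.3 in Lyn-KO and 0.304, 0.245 and 0.248 in Irf5-KO, a 44.6-fold difference with no overlap (5.48 ± 0.18, adjusted p = 1.4e-13). Tnf, its neighbour and the inflammatory cytokine, read 63.7, 66.5 and 71.2 against 18.5, 14.5 and 15.8 (2.05 ± 0.17). Il6 read 214, 234 and 257 against 98.9, 96.4 and 103, so the inflammatory cytokine was 2.36-fold higher in Lyn-KO (1.24 ± 0.12). Il27 and Ebi3, the subunits of interleukin 27, differed by 1.82 ± 0.16 and 1.03 ± 0.05. Il12a, the p35 chain of interleukin 12, differed by 1.13 ± 0.24 (0.51 after normexp correction). Il19, of the interleukin 10 family, read 5.70, 6.01 and 5.12 against 0.234, 0.351 and 0.406 (4.12 ± 0.34). Tnfsf15, a ligand that costimulates T cells, differed by 2.15 ± 0.23, and Il10, the anti-inflammatory cytokine, by 0.95 ± 0.19. The called lower gene was Ltb, lymphotoxin beta (-0.34 ± 0.09), which lost its call without the Irf5-KO replicate 1 with CpG-B (-0.24, adjusted p = 0.054) and in a fit of the 6 arrays alone (adjusted p = 0.074). Il1b, which needs processing by an inflammasome, read 115, 144 and 165 and 143, 163 and 138, and the groups overlapped (-0.08 ± 0.14, adjusted p = 0.73).

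The WT values parted these cytokines. Lta and Tnf lay above WT in Lyn-KO (2.29 ± 0.18 and 1.11 ± 0.17) and below WT in Irf5-KO (-3.19 ± 0.18 and -0.94 ± 0.17). Il6 and Il27 were called lower in Irf5-KO (-0.93 ± 0.12 and -2.02 ± 0.16) and not called in Lyn-KO (0.31 ± 0.12, adjusted p = 0.073, and -0.20 ± 0.16, adjusted p = 0.39). Il19 belonged with them (-4.83 ± 0.34 in Irf5-KO, -0.71 ± 0.34 in Lyn-KO with an adjusted p of 0.14). Tnfsf15 showed the reverse, higher in Lyn-KO (2.31 ± 0.23) and not called in Irf5-KO (0.16 ± 0.23, adjusted p = 0.71). Il1b was called higher than WT in both knockouts, by 1.13 ± 0.14 in Lyn-KO and 1.21 ± 0.14 in Irf5-KO.

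Among 23 chemokine genes 10 were called higher and 1 lower in Lyn-KO (median 0.22). The median was -0.0104 with no filter on dim probes, 0.43 over the 14 detected on every array, 0.36 without the Irf5-KO replicate 1 with CpG-B and 0.06 without the Irf5-KO replicate 2. Xcl1, the ligand of the receptor XCR1 on type 1 conventional dendritic cells, read 18.2, 15.3 and 19.1 in Lyn-KO and 0.0948, 0.0372 and 0.0448 in Irf5-KO. This was the largest positive difference among all features with a symbol that met the naming conditions (8.34 ± 0.28, adjusted p = 1.4e-13), and 6.08 after normexp correction. Only 1 of the 3 Irf5-KO arrays measured it above background, so its size rests in part on dim values. In WT the mean was 2.82, with differences of 2.63 ± 0.28 for Lyn-KO and -5.71 ± 0.28 for Irf5-KO. Ccl1, a ligand of CCR8, read 4.05, 4.29 and 4.84 against 0.220, 0.278 and 0.351 (3.98 ± 0.51). Ccl3 and Ccl4, inflammatory chemokines, read 309.9, 331 and 340.2 and 412, 481 and 614 in Lyn-KO. In Irf5-KO they read 99.9, 85.4 and 88.4 and 137, 137 and 135. Their differences were 1.84 ± 0.13 and 1.87 ± 0.16, and that of Ccl5, which draws T cells, was 0.79 ± 0.15. Pf4, the platelet factor, was the called lower chemokine (-1.85 ± 0.18). Cxcl10, an interferon-induced CXCR3 ligand, read 368, 398 and 453 against 548, 541 and 515 without a call (-0.40 ± 0.31, adjusted p = 0.35).

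NF-kB targets and feedback regulators went in both directions, with 10 of 45 called higher and 19 lower, a median of -0.18. Nfkbiz, a nuclear IkB protein needed for Il6 induction, read 27.4, 25.2 and 19.9 in Lyn-KO and 7.14, 5.21 and 6.77 in Irf5-KO (1.92 ± 0.14). Map3k8, the kinase TPL2 upstream of ERK, differed by 0.89 ± 0.10. Of the genes called lower, Tnfaip3, the deubiquitinase A20, read 61.9, 62.1 and 61.2 against 106, 102 and 99.9 (-0.73 ± 0.08), and its partner Tnip2 differed by -0.95 ± 0.08. Irak3, the inhibitory kinase homologue of the MyD88 complex, differed by -1.51 ± 0.12, and Dusp4, a MAP kinase phosphatase, by -2.16 ± 0.18. Nos2, the inducible nitric oxide synthase, read 5.93, 6.37 and 5.44 against 15.4, 22.7 and 17.1, 3.07-fold lower in Lyn-KO (-1.62 ± 0.17). Sod2, a mitochondrial superoxide dismutase, differed by -1.05 ± 0.10. Nfkbia, the classical NF-kB inhibitor, read 427, 492 and 484 and 443, 467 and 439, overlapping between groups (0.06 ± 0.08, adjusted p = 0.62). Tnfaip3 and Tnip2 were lower in Lyn-KO than in WT (-0.74 ± 0.08 and -0.997 ± 0.08), with Irf5-KO values of -0.007 ± 0.08 (adjusted p = 0.97) and -0.05 ± 0.08 (adjusted p = 0.72). Nos2 and Irak3 lay on either side of WT (-0.67 ± 0.17 and -0.54 ± 0.12 in Lyn-KO, 0.95 ± 0.17 and 0.97 ± 0.12 in Irf5-KO).

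Genes of the sensing machinery went in both directions. Of 30 genes 7 were called higher and 8 lower, with a median of 0.02. Tlr9, the receptor, read 7.99, 7.64 and 7.74 in Lyn-KO and 6.99, 6.24 and 6.5004 in Irf5-KO, a 1.19-fold difference (0.25 ± 0.06). Unc93b1, which carries the receptor to endosomes, and Traf6 differed by 0.47 ± 0.06 and 0.42 ± 0.08. Myd88 was lower in Lyn-KO (-0.42 ± 0.06). The difference in Tlr7, an endosomal receptor for RNA, was 0.33 ± 0.08. Cytosolic nucleic acid sensors had 4 of 16 called higher and 3 lower, and STATs, SOCS and their receptors 5 of 25 higher and 8 lower.

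Lyn's own family and partners gave 6 higher and 8 lower of 22. Dok2, an adaptor that dampens tyrosine kinase signals, read 6.98, 5.45 and 6.11 in Lyn-KO and 1.04, 0.846 and 0.780 in Irf5-KO (2.80 ± 0.15), and its relative Dok3 went the other way, with 0.349, 0.442 and 0.448 against 1.04, 1.13 and 1.04 (-1.38 ± 0.13). The 2 adaptors thus differed in opposite directions. Ptpn22, a phosphatase acting on Src-family kinases, differed by 1.07 ± 0.08, yet it lay below WT in both knockouts (-0.59 ± 0.08 in Lyn-KO, -1.66 ± 0.08 in Irf5-KO). Syk, a kinase which Lyn acts with, differed by -0.37 ± 0.07. Among 21 inhibitory receptors, whose tails Lyn is known to phosphorylate, 7 were called higher and 8 lower, with a median of -0.03. Pirb, which binds class I molecules, read 84.4, 86.6 and 85.8 against 213, 233 and 225 (-1.39 ± 0.06). Fcgr2b, the inhibitory Fc receptor, differed by -1.44 ± 0.12, Siglecg, a sialic acid receptor, by -1.20 ± 0.08, and Sirpa, the CD47 receptor, by -1.01 ± 0.08. Lair1, a collagen receptor, read 14.6, 12.6 and 14.4 against 3.72, 2.68 and 3.00 (2.16 ± 0.11). Klra17, a lectin-like receptor that plasmacytoid cells carry, was also higher (2.76 ± 0.12).

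**Figure D3:**
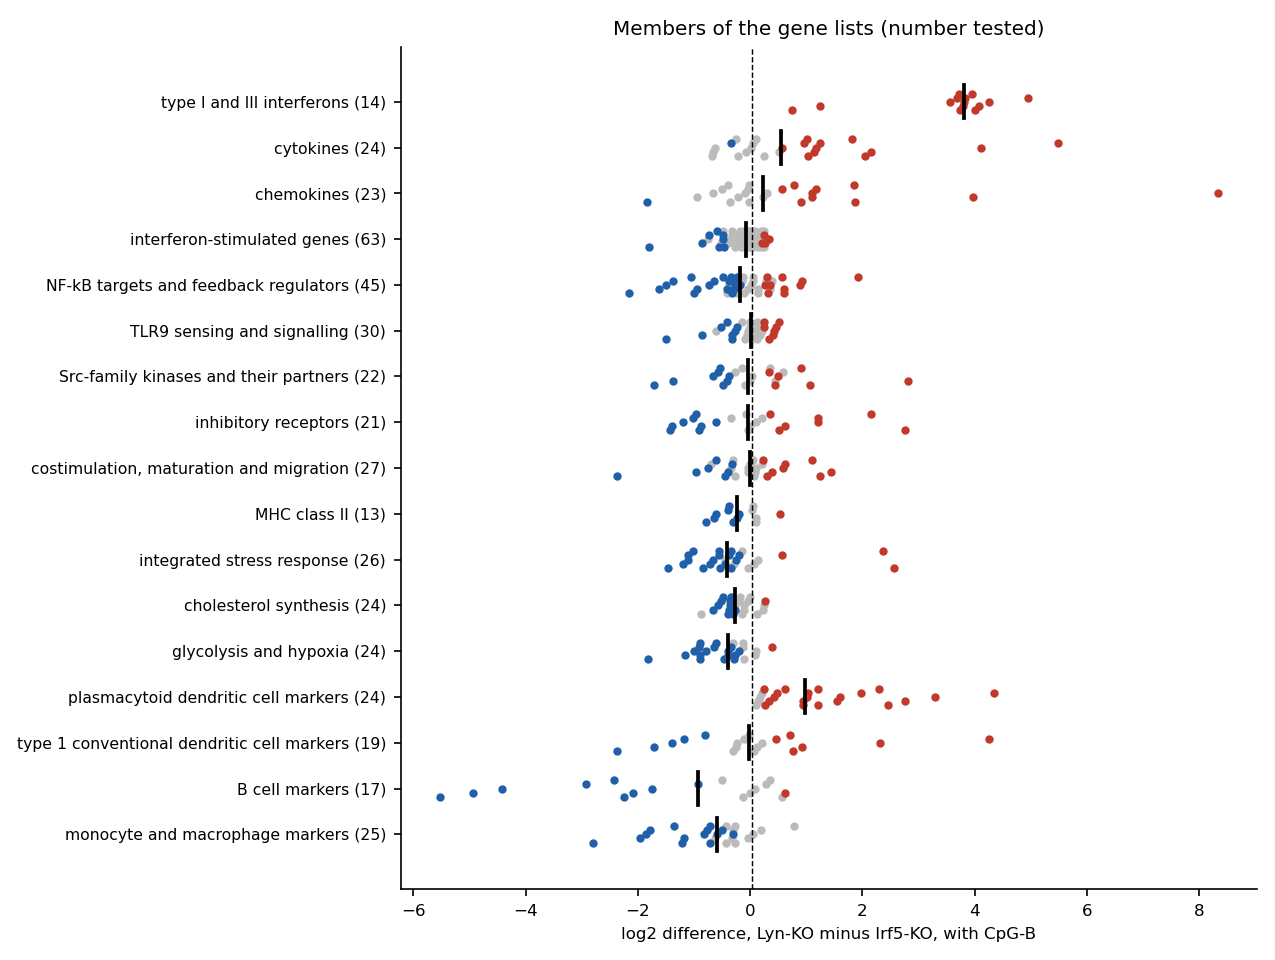
Every tested member of 17 gene lists is a point at its log2 difference between Lyn-KO and Irf5-KO with CpG-B, red if called higher, blue if called lower and grey if not called, with a black bar at the list's median and a dashed line at the median of all features (0.03). The 14 interferons lie between 0.75 and 4.96, while the 63 interferon-stimulated genes lie around a median of -0.07.

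Markers of the cell types that such a culture can hold also differed. Of 24 plasmacytoid dendritic cell markers 20 were called higher in Lyn-KO and 0 lower by limma (0 also at an unadjusted p of 0.05), with a median of 0.97. Their summed signal ran from 1261 to 1378 on the Lyn-KO arrays, from 833 to 909 on the Irf5-KO arrays and from 876 to 944 on the WT arrays with CpG-B. Klk1, a kallikrein of these cells, read 4.24, 2.82 and 3.49 against 0.183, 0.149 and 0.183 (4.34 ± 0.20). The homing receptor Ccr9 differed by 1.98 ± 0.14, the defining transcription factor Tcf4 by 1.02 ± 0.09 and Spib by 1.20 ± 0.08. Siglech, the surface marker most used to define the type, read 213, 236 and 254 and 209, 199.9 and 197 and was not called (0.21 ± 0.12, adjusted p = 0.21), while a second probe of the gene was called higher (0.63). Without CpG-B 12 of the 24 were called higher, with a median of 0.46, against 3.02% of all features. The response was called larger in Lyn-KO for 13, against 8.63% of all features. The part of cell numbers in the interferon difference was not tested.

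Type 1 conventional dendritic cell markers split, with 6 of 19 called higher and 5 lower (median -0.01). Their summed signal was 412 to 439 on the Lyn-KO arrays, 231 to 244 on the Irf5-KO arrays and 307 to 339 on the WT arrays with CpG-B. The sums did not overlap between the groups, but most of the gap came from Irf8 alone, whose signals are given above. They therefore do not measure the content of this cell type. Clec9a, a receptor for dead cells that defines the type, read 13.6, 13.4 and 13.8 and 11.9, 11.7 and 14.2, overlapping between groups (0.12 ± 0.08, adjusted p = 0.32). Tlr12, a sensor of parasite profilin, read 11.2, 8.28 and 8.97 against 0.570, 0.409 and 0.506, 19.2-fold higher in Lyn-KO (4.26 ± 0.15). Naaa, a lysosomal amidase, read 4.21, 4.82 and 5.24 against 24.4, 24.2 and 25.1, 5.19-fold lower (-2.38 ± 0.12). Without CpG-B neither gene was called (0.23 ± 0.15, adjusted p = 0.48, and -0.15 ± 0.12, adjusted p = 0.64). Type 2 conventional markers had 3 of 17 called higher and 5 lower.

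B cell markers were the group with the largest shift towards Irf5-KO, with 9 of 17 called lower in Lyn-KO, 1 higher and a median of -0.94 (-2.09 over the 9 detected on every array). With CpG-B their summed signal was 28.2 to 29.7 on the Lyn-KO arrays, 104 to 133 on the Irf5-KO arrays and 73.5 to 96.6 on the WT arrays. Most of the gap came from Pou2af1, Mzb1 and Jchain, whose signals follow, and 7 of the 17 members were not called. The sums therefore do not measure the content of B cells. Pou2af1, a coactivator of B cells, read 0.586, 0.503 and 0.321 in Lyn-KO and 21.7, 23.7 and 18.2 in Irf5-KO (-5.53 ± 0.37). Mzb1, an ER protein of antibody-making cells, read 0.897, 0.801 and 0.574 against 23.3, 25.5 and 20.0 (-4.94 ± 0.33). Jchain, which joins IgM and IgA, read 1.96, 1.59 and 1.51 against 32.9, 44.3 and 31.3 (-4.42 ± 0.30). Ms4a1, which encodes CD20, differed by -2.43 ± 0.19, and Cd79a was at least 6.02-fold lower, although its fitted difference of -2.93 ± 0.21 was -1.37 after normexp correction. Cd79b read 13.8, 13.3 and 12.7 and 12.6, 13.6 and 11.3, overlapping between the groups (0.09 ± 0.18, adjusted p = 0.76). Against WT, Pou2af1 differed by -5.01 ± 0.37 in Lyn-KO and by 0.53 ± 0.37 in Irf5-KO (adjusted p = 0.34). In unstimulated cells 11 of the 17 markers were already called lower in Lyn-KO, against 3.06% of all features, and 0 higher by limma. The list median there was -2.78, against -0.94 with CpG-B. The unstimulated sums were 21.2 to 21.8 in Lyn-KO and 138 to 172 in Irf5-KO. The response to CpG-B was called higher in Lyn-KO for 7 members and lower for 1, against 8.63% and 10.8% of all features.

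Of 25 monocyte and macrophage markers 14 were called lower in Lyn-KO and 0 higher by limma (0 also at an unadjusted p of 0.05), with a median of -0.60. Their summed signal was 230 to 236 on the Lyn-KO arrays, 308 to 320 on the Irf5-KO arrays and 226 to 259 on the WT arrays. Csf1r, the receptor of macrophage colony-stimulating factor, read 11.1, 11.8 and 12.5 against 20.7, 22.9 and 19.0 (-0.82 ± 0.11), although another of its 3 probes differed by -0.05. Cd14, the endotoxin coreceptor, read 4.29, 4.78 and 4.98 against 11.2, 12.041 and 9.56 (-1.22 ± 0.15). Msr1, a scavenger receptor, differed by -1.97 ± 0.44 (-1.21 after normexp correction). In unstimulated cells 10 of the 25 were already called lower in Lyn-KO, against 3.06% of all features, with a median of -0.56. By limma 0 were called higher there (2 at an unadjusted p of 0.05). The response was called lower in Lyn-KO for 4. Set against WT with CpG-B, 14 were called higher in Irf5-KO (median 0.59), and 4 higher and 5 lower in Lyn-KO (median -0.13). Neutrophil and precursor markers had 1 of 17 called higher and 5 lower (median -0.53), with overlapping sums of 257 to 260 and 246 to 302. Basophil and mast cell markers had 2 of 11 higher and 1 lower, 0 past 2-fold in either direction, with a median of 0.07. Their sums, in which bright members weigh most, were 274 to 294 in Lyn-KO and 170 to 190 in Irf5-KO. Without CpG-B these sums were 86.0 to 90.0 and 85.2 to 89.5, so they rose with the stimulus in both genotypes. Erythroid and megakaryocyte markers had 2 of 11 higher and 5 lower, with sums of 13.9 to 14.6 and 28.1 to 37.3. T and NK cell markers had 2 of 15 higher and 4 lower, with overlapping sums of 22.8 to 25.8 and 21.9 to 23.7. The part of these cells in the other results was not tested.

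**Figure D4:**
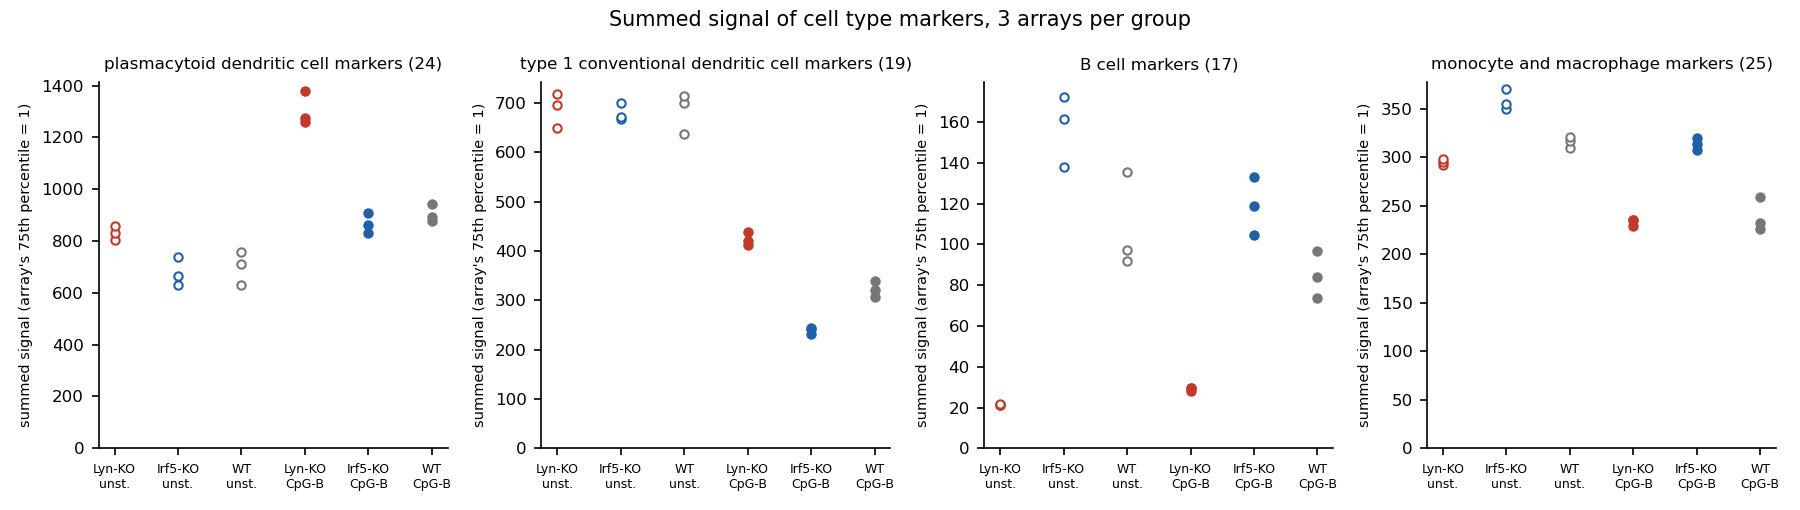
Summed signal of the tested markers of 4 cell types on each array, in multiples of the array's 75th percentile, for Lyn-KO (red), Irf5-KO (blue) and WT (grey), unstimulated (open) and with CpG-B (filled). B cell markers sum to 28.2 to 29.7 in Lyn-KO and 104 to 133 in Irf5-KO with CpG-B, and plasmacytoid markers to 1261 to 1378 and 833 to 909. Most of the B cell gap came from Pou2af1, Mzb1 and Jchain.

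Glycolysis genes were mostly lower in Lyn-KO than in Irf5-KO. Of 24 glycolysis and hypoxia genes 17 were called lower and 1 higher, with a median of -0.39 (-0.41, -0.40 and -0.38 within the slides). Ldha, lactate dehydrogenase, read 84.2, 82.1 and 77.4 against 162, 164 and 133 (-0.91 ± 0.08). Tpi1, a glycolytic isomerase, read 6.36, 7.32 and 6.49 against 12.3, 16.2 and 12.3 (-1.01 ± 0.15), and Slc16a3, a lactate exporter, 1.46, 1.57 and 1.77 against 3.34, 4.07 and 3.30 (-1.16 ± 0.10). Ankrd37, a target of hypoxia-inducible factor, differed most (-1.83 ± 0.13, and -1.03 after normexp correction), and Hk2, the inducible hexokinase, was the called higher gene (0.38 ± 0.08). The list median against WT was -0.0011 in Lyn-KO (3 higher, 5 lower) and 0.45 in Irf5-KO (16 higher, 1 lower). Over all features 13.9% were called higher and 11.2% lower than WT in Lyn-KO, and 14.4% and 11.1% in Irf5-KO. Without CpG-B 2 of the 24 were called, both higher in Lyn-KO, against 3.02% of all features. The response to CpG-B was called smaller in Lyn-KO for 12, against 10.8% of all features.

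Genes of the integrated stress response, through which cells adjust to amino acid shortage and unfolded protein, gave 17 of 26 called lower and 3 higher (median -0.41). Asns, asparagine synthetase, read 9.06, 9.35 and 9.92 against 20.8, 22.1 and 21.951 (-1.20 ± 0.11). The serine synthesis enzymes Phgdh and Psat1 differed by -1.47 ± 0.12 and -1.10 ± 0.08, Trib3, a pseudokinase target of ATF4, by -1.01 ± 0.10 and Ddit3, which encodes CHOP, by -0.72 ± 0.09. The members called higher included Nupr1, a stress-induced chromatin protein, with 85.2, 93.2 and 83.5 against 14.5, 19.3 and 17.5 (2.36 ± 0.14), and Slc7a3, a transporter of cationic amino acids (2.56 ± 0.18). ER chaperones had 7 of 20 called lower and 2 higher, and genes of DNA replication and mitosis 6 of 31 lower and 2 higher.

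Cholesterol synthesis had 11 of 24 called lower in Lyn-KO and 1 higher, with a median of -0.27. Hmgcs1, which makes the precursor of mevalonate, read 97.1, 103 and 108 against 139, 139.6 and 150.2 (-0.48 ± 0.09). Hsd17b7, an enzyme of a later step, differed by -0.58 ± 0.11 and Sqle, squalene epoxidase, by -0.36 ± 0.07. Without CpG-B the same list stood the other way, with 12 called higher, against 3.02% of all features, and a median of 0.33. By limma 0 members were called lower (0 also at an unadjusted p of 0.05). The response was called lower in Lyn-KO for 14 members, against 10.8% of all features. Against WT with CpG-B, 11 members were called higher in Lyn-KO and 18 in Irf5-KO, with medians of 0.28 and 0.53. The shares over all features were 13.9% and 14.4%. In limma 0 members were called lower in either, while 0 in Lyn-KO and 1 in Irf5-KO were lower at an unadjusted p of 0.05.

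**Figure D5:**
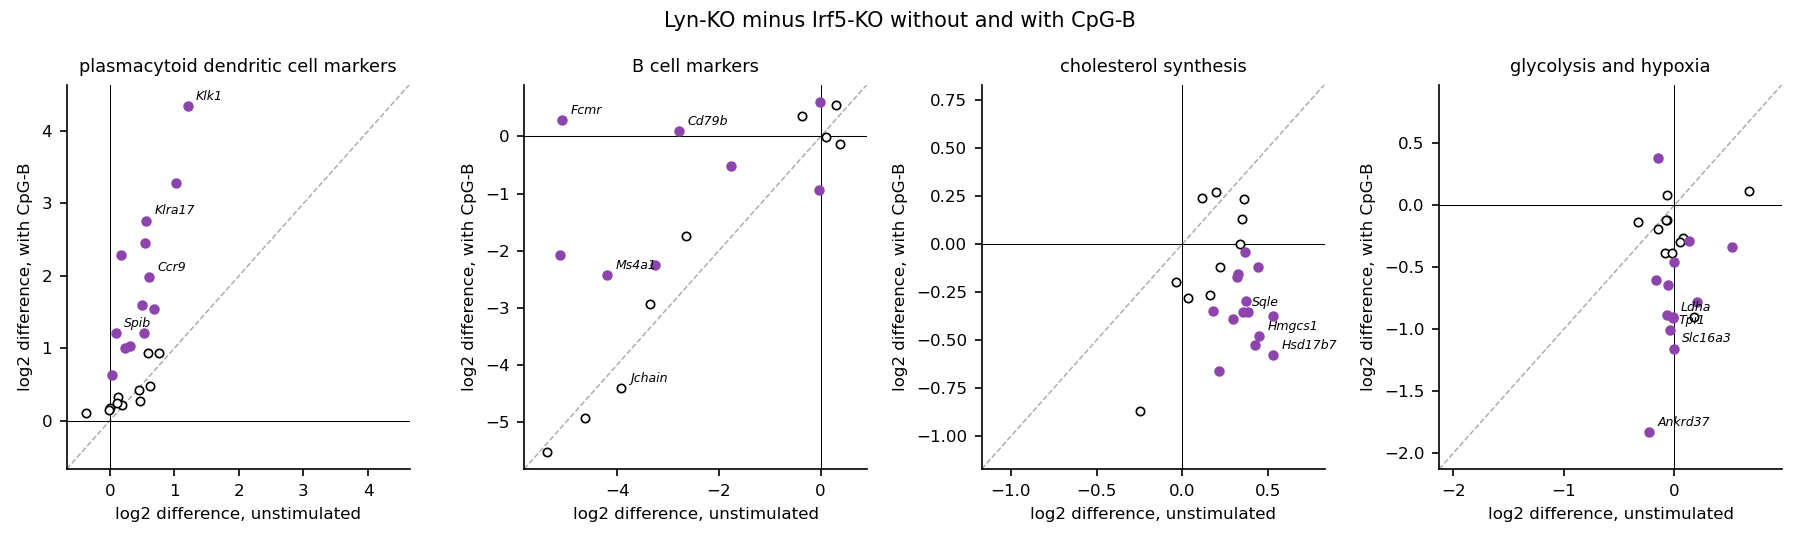
Log2 difference between Lyn-KO and Irf5-KO for members of 4 lists, unstimulated on the horizontal axis and with CpG-B on the vertical axis, with filled points where the difference of the CpG-B responses was called and a dashed line of equal difference. Most cholesterol synthesis genes lie right of and below zero (medians 0.33 and -0.27), and Fcmr lies at -5.08 without and 0.29 with CpG-B.

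Of 13 class II genes 8 were called lower in Lyn-KO and 1 higher, with 0 past 2-fold in either direction (median -0.23). Their summed signal overlapped between the groups, at 2010 to 2290 in Lyn-KO and 1996 to 2180 in Irf5-KO. H2-DMb2, a chain of the peptide editor, read 1.23, 1.27 and 1.01 against 1.99, 1.79 and 2.31 (-0.80 ± 0.11), and Rfx5, a factor of the class II promoters, was the called higher gene (0.53 ± 0.17), a call lost without Lyn-KO replicate 1 or 3 or Irf5-KO replicate 3 with CpG-B (adjusted p up to 0.062). The presenting chains H2-Ab1 and H2-Eb1 differed by 0.10 ± 0.13 and 0.042 ± 0.12 (adjusted p = 0.61 and 0.84, not called). The class I loading and immunoproteasome genes had 5 of 20 called lower and 1 higher. Costimulation and migration genes were evenly divided, 8 of 27 higher and 7 lower with a median of 0.00051. Cd86, a ligand of CD28, read 32.5, 34.9 and 35.2 against 49.2, 51.9 and 56.0 (-0.61 ± 0.07), while Cd40, which receives T cell help, read 178, 184 and 189 and 172, 169 and 174 and was not called (0.09 ± 0.08, adjusted p = 0.43). Slamf1, a self-ligand receptor, read 0.348, 0.331 and 0.294 against 1.34, 1.94 and 1.78 (-2.37 ± 0.20), and Fscn1, an actin bundler of mature dendritic cells, 47.0, 53.5 and 52.1 against 19.6, 21.4 and 23.1 (1.25 ± 0.21).

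The largest differences outside these groups follow, with the WT level beside some of them. Hsd11b1, which regenerates active glucocorticoid, read 7.79, 5.63 and 6.27 in Lyn-KO and 0.183, 0.162 and 0.153 in Irf5-KO, 39.3-fold apart (5.30 ± 0.17). Its WT mean was 4.44, and Irf5-KO lay -4.75 ± 0.17 from it against 0.55 ± 0.17 for Lyn-KO. Fam89a read 43.0, 44.7 and 37.6 against 1.49, 1.69 and 1.5002 (4.74 ± 0.25), with a WT mean of 38.7. Rhbdl3, a rhomboid-like membrane protein, read 2.27, 2.23 and 2.37 in Lyn-KO, was not well above background in Irf5-KO and was at least 28.1-fold higher, with a WT mean of 2.90. Its fitted difference of 5.29 ± 0.36 was 3.12 after normexp correction. In all 3 genes Lyn-KO lay nearer to WT than Irf5-KO did. Sardh, sarcosine dehydrogenase, read 2.13, 1.69 and 1.78 in Lyn-KO, at least 23.4-fold above Irf5-KO (fitted difference 5.62 ± 0.35, and 3.17 after normexp correction), and its WT mean of 0.315 lay between the 2 groups.

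Timd2, a receptor for ferritin, had the largest negative difference among named features. It read 4.10, 5.14 and 3.49 in Irf5-KO, was not well above background on the Lyn-KO arrays and was at least 53.0-fold lower there (fitted difference -6.11 ± 0.33, and -4.01 after normexp correction). Gimap3 and Gimap4, GTPases of lymphocytes, read 1.84, 1.84 and 1.53 and 4.29, 4.64 and 4.04 in Irf5-KO. In Lyn-KO they read 0.0898, 0.101 and 0.119 and 0.442, 0.331 and 0.396, lower by fitted differences of -4.08 ± 0.25 and -3.48 ± 0.23. After normexp correction these were -2.72 and -2.94. Bcar3, an adaptor of Src-family signalling, read 0.243, 0.376 and 0.391 against 3.15, 4.19 and 3.46 (-3.44 ± 0.23). Hes5, a target of Notch, and Wnt10a, a Wnt ligand, differed by -3.87 ± 0.28 (-2.35 after normexp correction) and -3.44 ± 0.41. Against WT, Gimap4 and Bcar3 were lower in Lyn-KO (-2.60 ± 0.23 and -2.51 ± 0.23), with Irf5-KO values of 0.87 ± 0.23 and 0.93 ± 0.23.

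Without CpG-B the same genotypes gave 1229 called features (6.08%), 610 higher (3.02%) and 619 lower (3.06%) in Lyn-KO. The count fell to 771 without the unstimulated Irf5-KO replicate 2. Of these, 728 were called in the same direction with CpG-B, which is 59.2% of the unstimulated and 10.3% of the CpG-B calls, and 124 were called in opposite directions. The difference of the CpG-B responses was itself called for 3935 features (19.5%), including 3582 (50.8%) of those called with CpG-B. The B cell markers show both kinds. Pou2af1 differed alike without and with CpG-B (-5.38 ± 0.37 and -5.53 ± 0.37, adjusted p of the difference in response 0.9). Fcmr, the IgM receptor, had means of 0.403 in Lyn-KO and 13.6 in Irf5-KO without CpG-B (-5.08 ± 0.26), and read 4.9999, 5.53 and 5.46 and 4.53, 4.67 and 3.91 with it (0.29 ± 0.26, not called, adjusted p = 0.42). Its responses differed by 5.37 ± 0.36. Il10 was lower in unstimulated Lyn-KO (-3.95 ± 0.19) and higher with CpG-B (0.95 ± 0.19).

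Genes near the targeted loci were looked at because flanking DNA travels with a knockout allele. Within 10 Mb of Lyn 16 of 33 tested genes were called with CpG-B (48.5%), and within 10 Mb of Irf5 28 of 61 (45.9%), against 40.8% of all features with a symbol. Near Irf5, Bpgm, an enzyme of a side branch of glycolysis, differed by 1.70 ± 0.09 with and -0.24 ± 0.09 without CpG-B (adjusted p = 0.16). Arf5, a small GTPase, differed by 0.92 ± 0.12 and 1.00 ± 0.12, and Impdh1, of guanine nucleotide synthesis, by -1.64 ± 0.13 with CpG-B. Near Lyn, Asph, a hydroxylase, differed by 1.16 ± 0.11 and Trp53inp1, a p53 target, by -1.09 ± 0.08. The part of flanking DNA in these values was not tested.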

How the data were processed

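Each array's file is scanner output of Agilent Feature Extraction 10.7.3.1, 1 colour per array, with spot intensity background-subtracted within the array by that software, per the file headers. A series table that was also deposited, used as an alternative, holds log2 values centred by the authors on each probe's median over arrays. Its differences between arrays lay within 0.0143 of the scanner values for 95% of comparisons over 17008 bright probes.

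The log2 processed signal of each array was set relative to its own 75th percentile, control spots and 4351 outlier spot values were left out, and spots of a probe were averaged. No spot was saturated. Probes were kept where some group had all 3 arrays well above background, and the probe with the highest mean stood for a gene, giving 20208 features, 12647 of them named by accession from RefSeq (26762 of 55681 probes matched).

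One model over all 24 arrays with a mean per group was fitted with limma 3.58.1 in R 4.3.3 (lmFit, eBayes), with Benjamini-Hochberg adjustment over all features, and was tested on simulated data. The alternatives changed normalisation, background correction, scaling, the filter, the choice of probe, the variance prior, the arrays fitted and the slide as a block, used the deposited table, or left out each array of the groups compared in turn.

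Genes are named if they belong to a gene list, are targeted genes or Dock2, are called within 10 Mb of a targeted gene, or are among the 15 largest called differences in each direction (8 without CpG-B and for the responses). The comparison, the members and the lists were chosen with earlier results of these data known. Most list members are given by counts alone, and some are not reported here by name.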

Additional observations from a re-analysis of the deposited data

Results flagged for a closer look

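The response to CpG-B, tested as an interaction in limma, differed between Lyn-KO and Irf5-KO for 3935 features. Among the genes described above, 8 were also called in both conditions with opposite signs. The probes of 3 of them, Lta, Il10 and Slc7a3, were not detected on every array of the study. Their differences may therefore rest in part on dim values. For Lta, lymphotoxin alpha, the log2 response in Lyn-KO exceeded that in Irf5-KO by 6.14, for Il10, the anti-inflammatory cytokine, by 4.90, for Slc7a3, a cationic amino acid transporter, by 4.13 and for the phosphatase Ptpn22 by 1.44. The differences of response were -0.93 for Hmgcs1, -1.11 for Hsd17b7 and -0.71 for Sqle, all enzymes of cholesterol synthesis. That of the Irf5 probe was -0.71, and its call with CpG-B was lost under 2 alternatives, given above.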

How the results depend on the processing

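Of the 102 genes described above that were called with CpG-B, 99 kept direction and call under every alternative in which they were measured and without each of the 6 arrays compared. The exceptions, Irf5, Ltb and Rfx5, are given above, and none of the 102 changed sign. Among the genes not called, H2-Eb1, Il1b, Irf7 and Isg15 changed sign under at least 1 alternative. Dock2, Cxcl10 and Ifit1, not called, passed the threshold under at least 1 alternative (lowest adjusted p 0.010, 0.021 and 0.034 in limma). Normexp correction, run with an offset of 50 added to the signal, shrank the difference of 11 called genes by over 1.5 times. Among them were Cd79a (-1.37), Rhbdl3 (3.12), Sardh (3.17) and Rfx5 (0.30). It left 386 features higher and 465 lower by at least 2-fold. Only probes detected on all arrays, which kept 15774 of the 20208 features, left 340 and 381. The cause was not tested. The median of the chemokine list changed sign to -0.0104 with no filter on dim probes. Leaving out 1 array of the groups compared gave 5931 to 6467 calls with CpG-B (2863 to 3288 higher, 3068 to 3284 lower, 631 to 740 and 752 to 812 past 2-fold). It gave 771 to 1363 calls without CpG-B, the lowest without the unstimulated Irf5-KO replicate 2, 3430 to 4005 for the response, 4063 to 4734 for Lyn-KO and 4205 to 4803 for Irf5-KO against WT. The replicate number is the slide, and same-numbered Lyn-KO and Irf5-KO arrays deviated together by correlations of 0.135, 0.00732 and 0.0587. Deviations from a mean of 3 arrays gauge a shared slide effect poorly. The main fit did not treat the arrays as pairs. With the replicate block 7639 features were called with CpG-B (3864 higher, 3775 lower), 1444 without, 4457 for the response, and 5800 and 5733 against WT. Each of these counts was larger than in the main fit. Among the 117 genes the block changed the call of Dock2.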
